A study of Mus musculus with 16 samples.

Results

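Cortex of newborn mice with a conditional deletion of Foxp1 in the forebrain was compared with control cortex of the same age. The comparison used the 4 P0 cKO and the 4 P0 control libraries, 8 of the 16 libraries of the series, and every gene with at least 1 CPM (reads of a gene scaled to a common library total) in at least 4 of the 8. That rule was met by 12580 of the 20841 listed genes. The deposited table is named as holding no genes of chromosomes X and Y, so such genes were not tested. All 8 libraries hold polyA RNA from the right hemisphere of the cortex at postnatal day 0, and they were prepared and sequenced at 1 centre on 1 type of instrument. The 4 P7 cKO and 4 P7 control libraries, from cortex at postnatal day 7 and from another instrument and centre, served to follow the P0 genes in other animals. The labels call the genotypes conditional knock-out and control. They name no Cre driver, allele or strain, and do not say what the controls carry. A conditional deletion leaves the gene intact in cells that its driver does not reach. The labels do not say that each library is a separate animal, so the p-values measure the spread between these libraries, which may be technical.

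Foxp1 encodes a forkhead transcription factor that is known mainly as a repressor and acts together with its paralogs Foxp2 and Foxp4. In the developing mouse forebrain it is known from projection neurons of the cortex, from medium spiny neurons of the striatum and from neural progenitors. Around birth the mouse cortex still holds the last dividing progenitors, the youngest upper-layer neurons are on their way to their positions, and the first astrocytes and oligodendrocyte precursors appear. Bulk RNA cannot tell fewer cells of a type from less RNA per cell.

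The 8 libraries were sequenced to nearly the same depth, 17957490 to 18232943 reads, so 1 read was worth about 0.055 CPM and a gene at 0 can have been present at up to 0.167 CPM (3 reads, counting error only). The libraries did not vary alike. Over the tested genes the median SD of log2(CPM + 1) was 0.121 in cKO and 0.216 in control cortex, and 80.1% of genes had the larger SD among controls. Control replicates 2 and 6 stood apart on the first principal component, at 38.1 and 19.5, while the other 6 libraries lay between -17.9 and -0.443. Between controls 1 and 5 alone the median SD was 0.115, but an SD of 2 libraries is not comparable with whole-group SDs. By chi-square per gene on reads, controls 1 and 5 differed by 13.5, against 21.6 to 37.5 for the other control pairs. All cKO pairs were closer, at 7.25 to 9.57. Values without replicates 2 and 6, which were picked from these same data, are given for many genes whose call or size changes with them. They are not given for all, so a gene without such a value is not thereby stable. Genes that mark cortical excitatory neurons summed to 3989 to 4169 CPM in cKO and 4027 to 4785 CPM in control libraries, with all 12 detected. Genes that mark striatal neurons, from the tissue below the cortex, were present too and are described with the cell types.

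Foxp1 (chromosome 6, 98925338 to 99522721, minus strand, GRCm38) is given first because it checks the labels. It had 131, 166, 163 and 182 CPM in cKO replicates 3, 4, 7 and 8, against 273, 326, 339.9 and 364 CPM in control replicates 1, 2, 5 and 6. Every cKO library lay below every control library, and the mean of the cKO libraries was 49.3% of the control mean. An exact two-sided permutation test gave p = 0.0286, the smallest that the 70 assignments of 8 libraries allow, and the limma log2 fold change was -1.02 (SE 0.11, adjusted p = 0.00226). The file holds 1 value per gene, so reads over the deleted part were not counted apart, and exons of other genes cover 3.2% of its exons. Foxp2 had 30.8, 46.2, 52.7 and 38.7 CPM in cKO libraries, against 51.8, 38.8, 73.3 and 53.9 CPM in control libraries, and these groups overlapped (log2 fold change -0.36, adjusted p = 0.332). Foxp4 was at -0.13 (adjusted p = 0.401).

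Of the 12580 genes, limma called 32, which is 0.254%, at a Benjamini-Hochberg adjusted p under 0.05. Those higher in cKO cortex numbered 23 (0.183%) and those lower 9 (0.0715%), Foxp1 among them. The genes that rose include a retinoic acid enzyme, a growth factor and a growth factor receptor, peptide receptors, a kainate receptor subunit, a GABA receptor subunit and an acid-sensing channel. Those that fell include a pair of cytokine receptors, a metalloproteinase, a formin, a small GTPase and a linker histone. Changes over 2-fold were found for 10 higher and 5 lower genes, and the median absolute log2 fold change of the called genes was 0.92. In all 32 genes cKO and control libraries did not overlap. Over all tested genes, such a gap was found upward in 675 (5.37%) and downward in 566 (4.50%), and at an unadjusted p under 0.05 there were 1207 higher (9.59%) and 1069 lower (8.50%) genes. For 96.4% of the tested genes the 95% interval of the log2 fold change lay within -1 and 1, and for 59.8% within -0.5 and 0.5, which is the precision 4 libraries a group gave here.

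**Figure D1:**
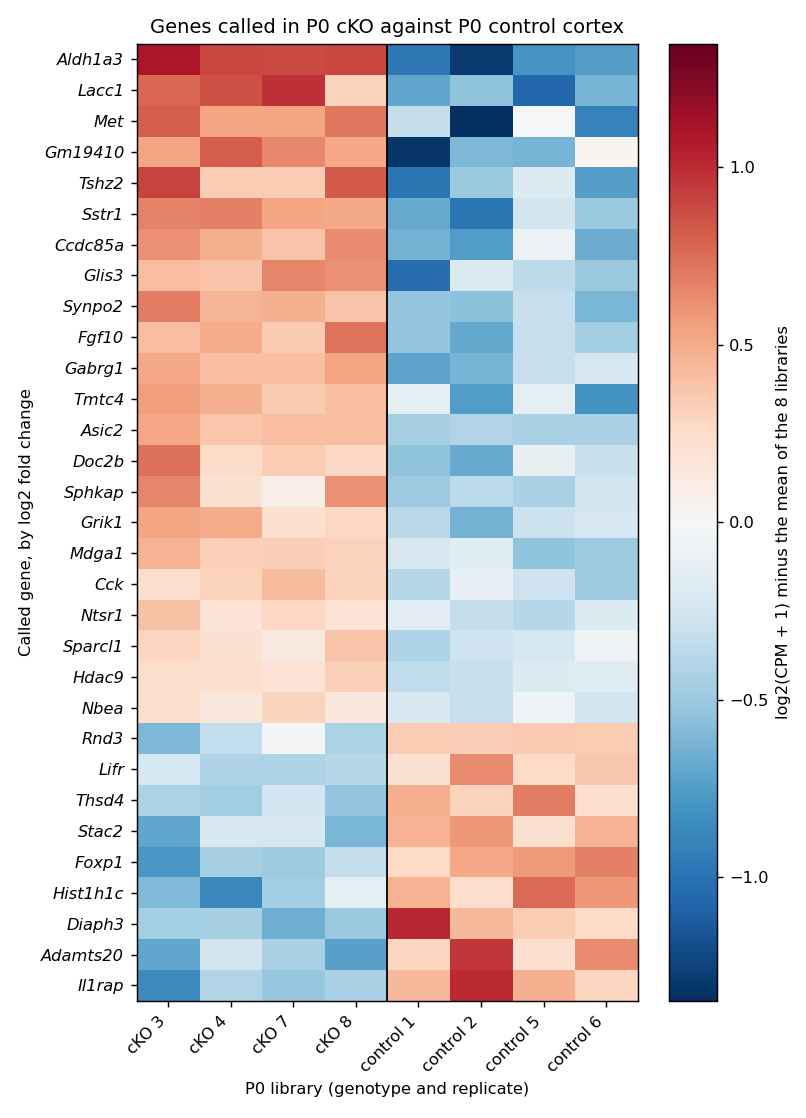
Heatmap of 31 of the 32 genes called at P0. Rows are genes ordered by log2 fold change, columns are the 4 cKO and 4 control libraries with their replicate numbers, and colour is log2(CPM + 1) minus the gene's mean over the 8 libraries. In every row the 4 cKO libraries lie on 1 side of all 4 control libraries.

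The number of called genes depended on single libraries. It was 4 without cKO replicate 3, 12 without cKO replicate 4, 13 without cKO replicate 7 and 4 without cKO replicate 8. It was 98 without control replicate 1, 46 without control replicate 2, 135 without control replicate 5 and 23 without control replicate 6. Leaving out control replicate 1 or 5 thus moved the number further from 32 than leaving out control replicate 2 or 6. Without control replicates 2 and 6 together it was 118 (0.938%), of which 73 were higher and 45 lower in cKO cortex. Of the 32 genes 31 stayed called without those 2 controls, and all 32 kept their direction. The exception was Nbea, at an adjusted p of 0.0584. The genes called under all 20 alternatives at the same threshold were Foxp1, Aldh1a3, Lacc1 and Asic2.

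**Figure D2:**
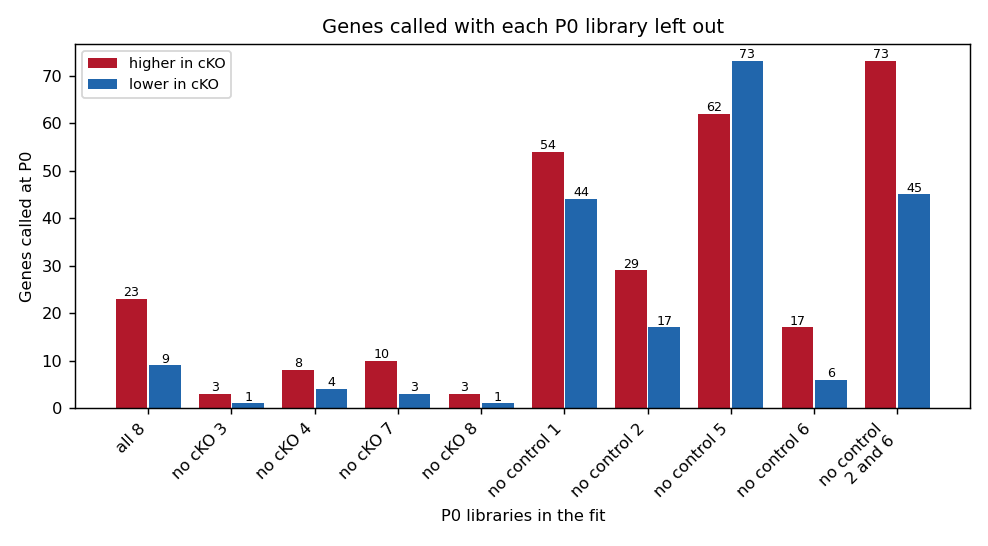
Genes called at P0 with each library left out. Bars give the number of genes called higher (left bar) and lower (right bar) in cKO cortex, from 23 and 9 with all 8 libraries to 3 and 1 without cKO replicate 3 or 8 and 62 and 73 without control replicate 5.

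Promoter letters were read for the called genes, since forkhead factors are known to bind short sites such as TGTTTAC. RefSeq windows from 250 bases before to 50 bases after a start were at hand for 24 of the 32 genes and for 9681 tested genes (GRCm38.p6). The motif TGTTTAC was searched on both strands, with the related forms TATTTAC and, as a further form, TGTTTAT. At least 1 was in 4 of the 20 windows of higher genes, in 0 of the 8 windows of lower genes other than Foxp1, in 2 windows of Foxp1 itself, and in 768 of the 12499 windows of all tested genes (6.14%). Those of higher genes belong to Fgf10, Gabrg1, Cck and Asic2, where the Asic2 match starts 29 bases after the start. The other 3 are shown over the 250 bases before the start, with the window of the lower gene Il1rap, which held none. Capitals mark the motif or its reverse complement, and each is written 5′ to 3′ on the strand of the gene. They lie at chr13:118714449-118714698 on the plus strand, chr5:70842618-70842867 on the minus strand, chr9:121495695-121495944 on the minus strand and chr16:26581455-26581704 on the plus strand.
Fgf10: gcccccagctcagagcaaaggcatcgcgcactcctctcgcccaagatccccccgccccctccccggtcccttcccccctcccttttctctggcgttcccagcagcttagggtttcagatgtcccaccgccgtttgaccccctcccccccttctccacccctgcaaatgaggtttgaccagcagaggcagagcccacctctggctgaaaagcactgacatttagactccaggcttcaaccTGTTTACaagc
Gabrg1: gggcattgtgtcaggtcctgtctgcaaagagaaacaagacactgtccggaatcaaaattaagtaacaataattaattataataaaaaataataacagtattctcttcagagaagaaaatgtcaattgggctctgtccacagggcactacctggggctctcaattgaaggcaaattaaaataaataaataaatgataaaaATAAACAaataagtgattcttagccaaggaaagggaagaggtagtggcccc
Cck: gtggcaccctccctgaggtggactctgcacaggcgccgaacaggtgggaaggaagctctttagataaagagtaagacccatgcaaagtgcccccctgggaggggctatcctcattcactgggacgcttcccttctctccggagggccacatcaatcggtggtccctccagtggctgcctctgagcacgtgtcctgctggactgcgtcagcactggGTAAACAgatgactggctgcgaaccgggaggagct
Il1rap: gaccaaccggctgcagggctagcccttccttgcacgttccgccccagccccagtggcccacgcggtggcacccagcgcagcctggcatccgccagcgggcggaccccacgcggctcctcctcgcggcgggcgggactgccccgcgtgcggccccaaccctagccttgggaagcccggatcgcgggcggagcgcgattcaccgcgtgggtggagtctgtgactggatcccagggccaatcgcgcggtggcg
The match begins 11 bases before the start of Fgf10, 51 before that of Gabrg1 and 35 before that of Cck. The RefSeq start of Fgf10 lies inside the GENCODE span of the gene. A match describes the letters of the window and says nothing of whether Foxp1 binds there.

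The signalling genes are described first. Aldh1a3 (chromosome 7, 66390890 to 66427517, minus strand), a retinaldehyde dehydrogenase that makes retinoic acid, had 12.3, 10.6, 10.5 and 10.6 CPM in cKO libraries, against 2.19, 1.55, 2.60 and 2.73 CPM in control libraries. It had the largest log2 fold change of the called genes, 1.89 (SE 0.16, adjusted p = 0.000226), and the cKO libraries were close to each other. Among 15 tested genes of retinoic acid handling it was the 1 called, and the list's median was -0.21. At an unadjusted p under 0.05, 2 were higher and 4 lower (9.59% and 8.50% over all tested genes). The binding protein gene Crabp2 had a log2 fold change of -0.63, the retinol dehydrogenase gene Rdh11 of 0.38, and the receptor gene Rarb, of whose exons 38.4% are covered by other genes, of -0.998. None of these 3 passed, and Crabp2 and Rarb were at -0.45 and -1.45 without control replicates 2 and 6.

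Fgf10 (chromosome 13, 118669791 to 118792115, plus strand), a growth factor known in mouse cortex for its part in the maturation of radial glia, had 16.6, 17.7, 15.8 and 21.0 CPM in cKO libraries, against 8.12, 7.198, 9.67 and 8.58 CPM in control libraries. It rose by 1.0 on the log2 scale (SE 0.14, adjusted p = 0.0113), with a gap between the groups wider than the range of the control libraries. Its promoter window is the first of those printed. Met (chromosome 6, 17463800 to 17573980, plus strand), the receptor of hepatocyte growth factor, had 109.5, 89.6, 89.6 and 102 CPM in cKO libraries, against 49.3, 23.7, 61.8 and 32.5 CPM in control libraries. It rose by 1.29 (SE 0.23, adjusted p = 0.0343), and by 0.81 without control replicates 2 and 6, which were its lowest libraries. Of the 19 tested genes listed around these 2 factors, 2 rose and 0 fell, with a median of 0.09. Spint2, an inhibitor of the protease that activates hepatocyte growth factor, had a log2 fold change of 0.55, and Dusp6, a feedback phosphatase of the ERK pathway, of -0.40. Neither passed, with adjusted p of 0.113 and 0.142, and Dusp6 was at -0.25 without control replicates 2 and 6, where 3 genes of the list were called higher.

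Sstr1 (chromosome 12, 58211772 to 58214444, plus strand), a somatostatin receptor, had 27.2, 27.6, 24.9 and 24.4 CPM in cKO libraries, against 10.1, 8.08, 14.0 and 11.6 CPM in control libraries, and rose by 1.20 (SE 0.15, adjusted p = 0.00828). Ntsr1 (chromosome 2, 180499976 to 180544980, plus strand), the neurotensin receptor that marks layer 6 neurons sending axons to the thalamus, averaged 105 ± 7.69 CPM in cKO and 73.4 ± 5.96 CPM in control cortex (SD, n = 4 each) and rose by 0.52. Of 19 tested peptides and peptide receptors these 2 rose and 0 fell. The list had 6 members higher and 0 lower at an unadjusted p under 0.05 (9.59% and 8.50% over all tested genes). Its median was 0.14, and 0.52 with a pseudocount of 0.1. Crhr1, the receptor of corticotropin-releasing hormone, and the neuropeptide Y receptor gene Npy1r were at 0.57 and 0.73 on the log2 scale and missed the threshold, and Npy1r was at 0.33 without control replicates 2 and 6. The peptide gene Cck (chromosome 9, 121489824 to 121495694, minus strand), which encodes cholecystokinin, had 52.6, 55.8, 60.9 and 55.9 CPM in cKO libraries, against 34.2, 41.4, 36.8 and 31.7 CPM in control libraries. It rose by 0.64 (SE 0.11, adjusted p = 0.0324), and it is another of the genes with a forkhead motif before the start.

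A pair of cytokine receptor genes was lower. Il1rap (chromosome 16, 26581704 to 26730117, plus strand), the co-receptor of interleukin-1 and related ligands, had 12.4, 17.3, 16.1 and 17.0 CPM in cKO libraries, against 31.9, 47.8, 32.9 and 28.8 CPM in control libraries. Lifr (chromosome 15, 7090614 to 7197489, plus strand), the receptor of leukaemia inhibitory factor, which drives astrocyte formation, had 24.6, 21.6, 21.6 and 22.1 CPM in cKO libraries, against 33.9, 46.2, 35.4 and 37.9 CPM in control libraries. Control replicate 2 was the highest library for both. Il1rap had a log2 fold change of -1.11 (SE 0.16, adjusted p = 0.0162) and Lifr of -0.73 (SE 0.12, adjusted p = 0.0286). Of 15 tested genes of the interleukin-1 and interleukin-6 receptor families these 2 fell and 0 rose, with a median of -0.05. The kinase gene Jak2 and the receptor gene Il1r1 were at 0.39 and -0.50 and missed the threshold, and Jak2 was at 0.24 without control replicates 2 and 6.

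**Figure D3:**
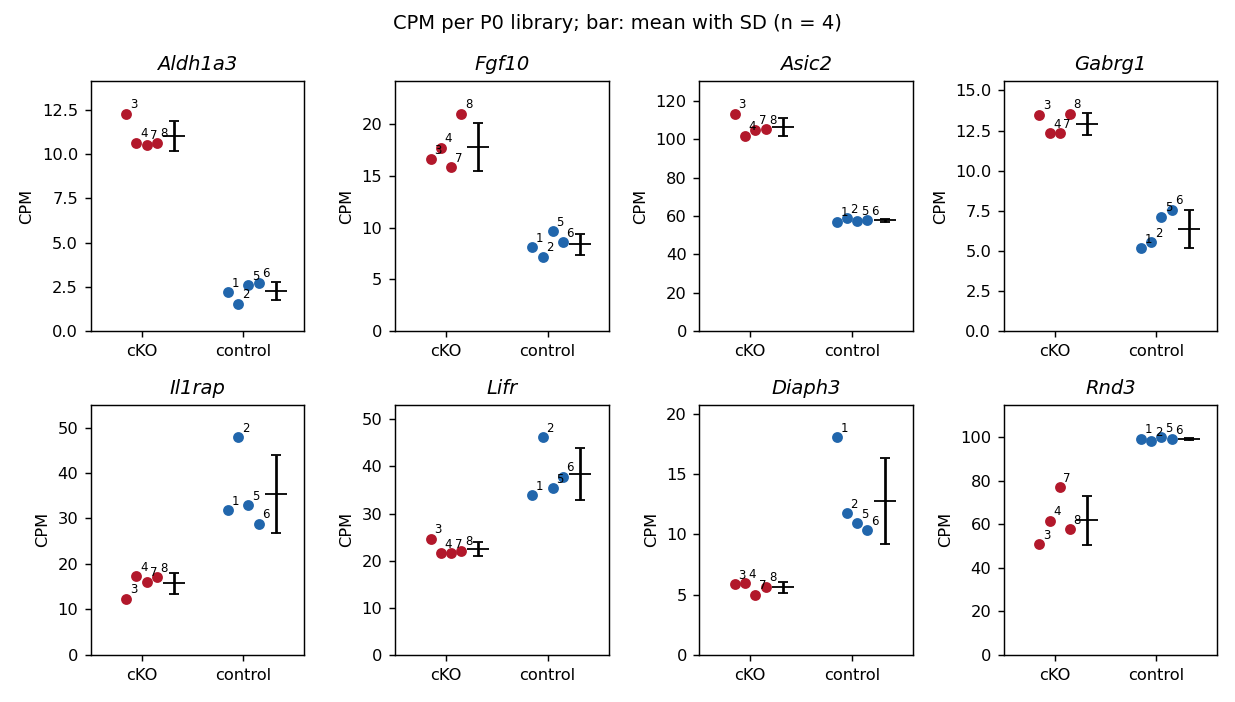
CPM of 8 called genes in each P0 library. Points are libraries with their replicate numbers, cKO left and control right, and the cross bar beside them is the mean with its SD (n = 4). The upper 4 genes are higher in all cKO libraries and the lower 4 are lower in all of them (Asic2 at 102 to 113 CPM in cKO and 57.1 to 58.8 CPM in control libraries, Rnd3 at 50.8 to 77.0 CPM in cKO and 98.2 to 99.9 CPM in control libraries).

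Receptors and channels of neurons form another group. Asic2 (chromosome 11, 80880169 to 81968457, minus strand), an acid-sensing sodium channel subunit, had 113, 102, 105 and 105 CPM in cKO libraries, against 57.1, 58.8, 57.6 and 57.7 CPM in control libraries. It rose by 0.87 (SE 0.08, adjusted p = 0.000575), and the libraries of each group were close to each other. Gabrg1 (chromosome 5, 70751047 to 70842617, minus strand), a gamma subunit of the GABA-A receptor, had 13.5, 12.3, 12.3 and 13.6 CPM in cKO libraries, against 5.16, 5.54, 7.13 and 7.57 CPM in control libraries, and rose by 0.94 (SE 0.15, adjusted p = 0.0248). Of the 16 tested GABA-A and glycine receptor subunits and chloride or glycine transporters, Gabrg1 was the 1 called. The list had 13 positive values, 7 members higher and 0 lower at an unadjusted p under 0.05 (9.59% and 8.50% over all tested genes), and a median of 0.31, against 0.01 over all tested genes. Gabra2 had 71.7 to 99.5 CPM in cKO and 34.9 to 69.98 CPM in control libraries (log2 fold change 0.83, adjusted p = 0.0756). Its groups did not overlap, but it missed the threshold. Gabrd, with overlapping groups, was at 0.58, and 0.93 without control replicates 2 and 6 (adjusted p = 0.0330), where 3 genes of the list were called higher.

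Among 23 tested glutamate receptor genes 0 fell. Grik1 (chromosome 16, 87895900 to 88290265, minus strand), a kainate receptor subunit, had 57.3, 55.9, 45.9 and 47.96 CPM in cKO libraries, against 30.2, 25.0, 31.9 and 33.5 CPM in control libraries (log2 fold change 0.76, SE 0.12, adjusted p = 0.0251). The list had 7 members higher and 3 lower at an unadjusted p under 0.05 (9.59% and 8.50% over all tested genes) and a median of 0.20. In 6 members all cKO libraries were above all controls and in 2 all were below (5.37% and 4.50% over all tested genes). The NMDA receptor genes Grin3a and Grin1 (13.5% of its exons overlapped) had log2 fold changes of 0.63 and 0.42 with adjusted p of 0.0774 and 0.0841. Grin3a was called without control replicates 2 and 6 (adjusted p = 0.0411), and the list then held 3 genes called higher and 1 called lower. Summed over the list, the level was 3595 to 4193 CPM in cKO and 2856 to 3589 CPM in control libraries.

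Several called genes act at the synapse, in neuronal scaffolds or in adhesion. Doc2b (chromosome 11, 75768966 to 75796049, minus strand), a calcium sensor of vesicle release, averaged 46.3 ± 7.87 CPM in cKO and 26.05 ± 4.81 CPM in control cortex (SD, n = 4 each), a log2 fold change of 0.81 (SE 0.15, adjusted p = 0.0453). Nbea (chromosome 3, 55625195 to 56183701, minus strand), neurobeachin, which takes part in the trafficking of synaptic receptors, was among the most abundant, at 1055 ± 52.6 CPM in cKO and 788 ± 59.5 CPM in control cortex (SD, n = 4 each). Its log2 fold change of 0.42 was the smallest of the called genes. Sphkap (chromosome 1, 83254139 to 83408200, minus strand), an anchoring protein of protein kinase A, had 170.1, 124, 114 and 165 CPM in cKO libraries, against 76.5, 83.3, 79.2 and 89.8 CPM in control libraries, a log2 fold change of 0.78. Its cKO libraries fell into 2 levels, with replicates 3 and 8 above replicates 4 and 7. Mdga1 (chromosome 17, 29827949 to 29970087, minus strand), an adhesion protein of upper-layer neurons that binds neuroligins, averaged 259 ± 14.1 CPM in cKO and 158 ± 20.6 CPM in control cortex (SD, n = 4 each) and rose by 0.71 (SE 0.10, adjusted p = 0.00920). Synpo2 (chromosome 3, 123076519 to 123236149, minus strand), an actin-binding protein, rose by 1.002, to 10.1 to 12.7 CPM in cKO libraries, against 4.57 to 5.86 CPM in control libraries. Stac2 (chromosome 11, 98036623 to 98053462, minus strand), an adaptor of voltage-gated calcium channels, was lower, at 19.6, 27.8, 27.8 and 20.8 CPM in cKO libraries, against 45.4, 49.2, 37.97 and 45.3 CPM in control libraries (log2 fold change -0.87, SE 0.14, adjusted p = 0.0251).

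With all 8 libraries the wider lists of synaptic and channel genes held no called member. Of 23 tested genes of vesicle release 2 were higher and 2 lower at an unadjusted p under 0.05, near the 9.59% and 8.50% of all tested genes, with a median of 0.07. Sv2b, a vesicle glycoprotein, had 95.3, 85.4, 84.2 and 88.1 CPM in cKO libraries, against 36.9, 41.7, 62.7 and 61.8 CPM in control libraries, and missed the threshold (log2 fold change 0.82, adjusted p = 0.0542). Without control replicates 2 and 6 it was called, at an adjusted p of 0.0110. The vesicle genes Syt1, Snap25 and Slc17a6 had log2 fold changes of 0.46, -0.33 and -0.39, and Snap25 and Slc17a6 were at -0.09 and -0.0044 without those 2 controls. Of 21 postsynaptic scaffold and adhesion genes 6 were higher and 1 lower at an unadjusted p under 0.05, with a median near 0. The adhesion gene Lrrc4c was the lower one, at a log2 fold change of -0.42, while Shank3, Cntnap2 and Nrxn2 were at 0.52, 0.32 and 0.21. Lrrc4c was called without control replicates 2 and 6 (adjusted p = 0.0293) and Shank3 was at 0.31. Potassium channels had 2 higher and 5 lower of 29 and a median of -0.02, with Kcnh1 at -0.84, Kcna1 at -0.54, Kcnh3 at 0.51 and Kcnd2 at 0.32. Without the same controls Kcnh3 was called higher (adjusted p = 0.0267), and Kcnh1 and Kcna1 were at -0.65 and -0.33. Sodium, calcium and HCN channels had 6 higher and 1 lower of 23 and a median of 0.07, with Hcn3, Cacna1i, Scn2a1 and Cacna1b at 0.47, 0.34, 0.49 and 0.26, and Scn2a1 was at 0.11 without those controls.

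Transcription and chromatin genes were also among those called. Glis3 (chromosome 19, 28258851 to 28680077, minus strand), a zinc finger factor of the Gli-similar family, had 23.6, 23.0, 28.1 and 27.4 CPM in cKO libraries, against 8.06, 15.1, 13.5 and 12.03 CPM in control libraries, and rose by 1.04 (SE 0.17, adjusted p = 0.0286). Of the 14 tested genes of the hedgehog pathway and the Glis factors it was the 1 called, with a median of -0.06. Cdon, a co-receptor of sonic hedgehog, had 92.1, 92.0, 116 and 89.8 CPM in cKO libraries, against 154, 281, 138 and 193 CPM in control libraries, and missed the threshold (log2 fold change -0.92, adjusted p = 0.0552). Without control replicates 2 and 6 Cdon was called lower, at -0.59 (adjusted p = 0.0148). Gli2 and Gli3 had log2 fold changes of -0.45 and -0.40.

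Tshz2 (chromosome 2, 169633013 to 170071816, plus strand), a zinc finger factor found in deep cortical layers, had 182, 122, 122 and 171 CPM in cKO libraries, against 48.1, 67.4, 84.1 and 56.9 CPM in control libraries (log2 fold change 1.21, adjusted p = 0.0120). Exons of other genes cover 67.5% of its exons and share 65.6% of its 50-base stretches, so its count is uncertain, and cKO replicates 3 and 8 were again above 4 and 7. Hdac9 (chromosome 12, 34047580 to 34917095, minus strand), a class IIa histone deacetylase, averaged 68.7 ± 2.50 CPM in cKO and 48.5 ± 3.02 CPM in control cortex (SD, n = 4 each) and rose by 0.50 (SE 0.09, adjusted p = 0.0441). The linker histone gene Hist1h1c (chromosome 13, 23738808 to 23740367, plus strand) had 5.58, 4.43, 6.14 and 8.08 CPM in cKO libraries, against 12.7, 10.7, 15.9 and 13.9 CPM in control libraries, a log2 fold change of -1.03 (SE 0.18, adjusted p = 0.0335). It was the 1 called of 11 tested histone genes, which had a median of -0.21. At an unadjusted p under 0.05, 0 were higher and 4 lower (9.59% and 8.50% over all tested genes). Most replication-dependent histone messages lack a polyA tail, and polyA RNA holds few of them. H3f3b and H1f0, whose messages have one, had log2 fold changes of -0.39 and -0.39, and Hist1h2bc, with 30.6% of its stretches shared, of -0.47. H3f3b was at -0.23 without control replicates 2 and 6.

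Called genes of matrix and cytoskeleton went both ways, with Adamts20, Thsd4, Diaph3 and Rnd3 lower and Synpo2 and Sparcl1 higher. Adamts20 (chromosome 15, 94270163 to 94465418, minus strand), a secreted metalloproteinase, had 28.0, 38.7, 33.8 and 27.3 CPM in cKO libraries, against 56.6, 90.6, 53.5 and 72.0 CPM in control libraries, with control replicate 2 the highest. Its log2 fold change was -1.053 (SE 0.17, adjusted p = 0.0248), and -0.78 without control replicates 2 and 6. Of 26 tested ADAMTS proteases, matrix metalloproteinases and their inhibitors 1 fell and 0 rose. At an unadjusted p under 0.05, 2 were higher and 7 lower (9.59% and 8.50% over all tested genes). Adamts1, Adamts6 and Mmp24 had log2 fold changes of -0.67, -0.46 and 0.36, and of -0.39, -0.28 and 0.23 without control replicates 2 and 6, where 2 genes of the list were called lower. Thsd4 (chromosome 9, 59966931 to 60522046, minus strand), a secreted protein of the ADAMTS-like family that binds fibrillin, averaged 7.57 ± 0.719 CPM in cKO and 14.4 ± 2.30 CPM in control cortex (SD, n = 4 each), a log2 fold change of -0.84 (SE 0.15, adjusted p = 0.0335). It was at -1.01 without control replicates 2 and 6.

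Diaph3 (chromosome 14, 86655367 to 87141235, minus strand), a formin that assembles actin filaments and acts in dividing cells, had 5.86, 5.92, 4.98 and 5.64 CPM in cKO libraries, against 18.0, 11.7, 10.9 and 10.4 CPM in control libraries. Rnd3 (chromosome 2, 51130438 to 51149111, minus strand), an atypical small GTPase known for its part in the migration of newborn cortical neurons, had 50.8, 61.6, 77.0 and 57.7 CPM in cKO libraries, against 99.3, 98.2, 99.9 and 99.1 CPM in control libraries. The controls of Rnd3 were nearly equal, and its cKO libraries spread over a wider range. The log2 fold changes were -1.03 (SE 0.17, adjusted p = 0.0286) for Diaph3 and -0.69 (SE 0.12, adjusted p = 0.0288) for Rnd3. Of 29 tested small GTPases, formins and migration genes these 2 fell and 0 rose, with a median near 0. The formin gene Diaph1 and the Cdk5 activator gene Cdk5r2 had log2 fold changes of 0.26 and 0.37, and Diaph1 was at 0.07 without control replicates 2 and 6.

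The remaining called genes have less settled roles in cortex. Lacc1 (chromosome 14, 77024200 to 77036904, minus strand), a purine-metabolising enzyme known from macrophages, had 9.28, 9.85, 10.8 and 6.42 CPM in cKO libraries, against 2.69, 3.10, 1.88 and 2.90 CPM in control libraries, and rose by 1.46 (SE 0.18, adjusted p = 0.00554). The predicted gene Gm19410 (chromosome 8, 35765790 to 35818047, plus strand) rose by 1.26, to 15.2 to 18.9 CPM in cKO libraries, against 3.56 to 10.5 CPM in control libraries. Ccdc85a (chromosome 11, 28385685 to 28584324, minus strand), which encodes a coiled-coil protein, rose by 1.07, to 54.8 to 65.4 CPM in cKO libraries, against 24.4 to 39.3 CPM in control libraries. Tmtc4 (chromosome 14, 122918971 to 122984035, minus strand), which adds mannose to cadherins in the endoplasmic reticulum, averaged 66.9 ± 4.32 CPM in cKO and 36.3 ± 9.60 CPM in control cortex (SD, n = 4 each), a log2 fold change of 0.90. Its controls 2 and 6 were the lowest, 18.1% of its 50-base stretches are shared, and the log2 fold change was 0.57 without those 2 libraries. None of these 4 genes had cKO and control libraries that overlapped.

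Adhesion and guidance lists held no called gene. Of 22 tested cadherins and protocadherins 2 were higher and 7 lower at an unadjusted p under 0.05 (9.59% and 8.50% over all tested genes), with a median of -0.10. Pcdh10 had 128, 135, 139.6 and 151 CPM in cKO libraries, against 180.2, 187, 199 and 168 CPM in control libraries (log2 fold change -0.40, adjusted p = 0.0756). Cdh10, Pcdh15 and Cdh20 had log2 fold changes of -0.41, -0.60 and 0.67. Pcdh10 and Cdh20 were called without control replicates 2 and 6, in opposite directions, with adjusted p of 0.0223 and 0.0158, and Pcdh15 was at -0.39. Of 36 axon guidance genes 5 were higher and 7 lower, with a median of 0.04. The slit receptor gene Robo1, the guidance cue Ntn1 and the semaphorin gene Sema5b had log2 fold changes of -0.34, -0.70 and -0.47, and the plexin gene Plxna1 of 0.37. Robo1 was called lower without control replicates 2 and 6, at -0.40 (adjusted p = 0.0307), while Sema5b and Plxna1 were at -0.21 and 0.17.

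Markers of cell types and layers were read next. Of 16 tested upper-layer genes Mdga1 rose, and the list had a median of 0.08. At an unadjusted p under 0.05, 5 were higher and 3 lower (9.59% and 8.50% over all tested genes). Rorb, the nuclear receptor gene of layer 4, had 24.9, 33.9, 42.6 and 33.4 CPM in cKO libraries, against 41.4, 56.5, 61.1 and 50.5 CPM in control libraries, overlapping groups with a log2 fold change of -0.63 (adjusted p = 0.113). Pou3f3 was at -0.35 (adjusted p = 0.0774) and Mef2c at 0.31 (adjusted p = 0.165). Of 20 deep-layer genes Tshz2 and Ntsr1 rose and 0 fell, with a median of -0.10, and Rprm and Tox were at -0.34 and -0.30. Without control replicates 2 and 6, 2 genes of that list were called lower, Rprm at -0.41 (adjusted p = 0.0427) and Tox at -0.50 (adjusted p = 0.0249). Of 8 subplate genes 0 passed, and Nr4a2, a nuclear receptor gene of the subplate, came nearest, at 141, 108, 85.9 and 125 CPM in cKO libraries, against 33.7, 35.6, 63.4 and 73.7 CPM in control libraries (log2 fold change 1.20, adjusted p = 0.0552). Inpp4b, Nxph4 and Ctgf, also of that list, were at 0.44, -0.50 and -0.32, and the values of Nxph4 and Ctgf were -0.21 and -0.01 without the same controls, where Nr4a2 was called. Of 15 interneuron genes 0 passed, with a median of 0.03, and Adarb2, Sox6, Gad2 and Dlx2 were at 0.40, 0.46, -0.48 and -0.35, with Sox6 and Gad2 at 0.24 and -0.27 without those controls.

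With all 8 libraries no gene of the progenitor and cell cycle lists was called. Of 28 tested cell cycle genes 25 had negative values, against 5997 of all 12580. At an unadjusted p under 0.05, 0 were higher and 10 lower (9.59% and 8.50% over all genes), and in 7 all cKO libraries lay below all controls (4.50% over all genes). The list's median was -0.26, and -0.40 without control replicates 2 and 6. Mki67, which marks dividing cells, had 94.1, 96.4, 100.4 and 95.9 CPM in cKO libraries, against 170.2, 123, 116 and 131 CPM in control libraries, with control replicate 1 the highest and a log2 fold change of -0.46 (adjusted p = 0.106). Mki67 was called lower without control replicates 2 and 6, at -0.54 (adjusted p = 0.0454), as 1 of 2 genes of the list. The mitotic kinase genes Aurkb, Aurka and Cdk1 were at -0.66, -0.56 and -0.53. Summed, the list had 818 to 924 CPM in cKO and 907 to 1221 CPM in control libraries. Of 12 tested genes of intermediate progenitors and new neurons 2 were higher and 5 lower at an unadjusted p under 0.05, with a median of -0.24. Eomes, which marks intermediate progenitors, had 37.4, 39.6, 38.3 and 31.98 CPM in cKO libraries, against 94.8, 72.1, 45.5 and 40.7 CPM in control libraries, where replicates 1 and 2 were far above replicates 5 and 6 (log2 fold change -0.69, adjusted p = 0.163). Sox4, with 54.1% of its stretches shared, Sox11 and Mfap4 were at -0.29, -0.20 and -0.57, with Sox4 at -0.15 without control replicates 2 and 6. Of 16 radial glia genes 3 were higher and 7 lower, with a median of -0.02. The neurogenic factor Pax6 and the filament gene Vim were at -0.49 and -0.29, while Ptprz1, a receptor phosphatase, and Slc1a3, a glutamate transporter that astrocytes share, were at 0.23 and 0.22. Ptprz1 was at 0.16 without control replicates 2 and 6. For both progenitor lists the sums did not overlap. That of intermediate progenitors and new neurons was 3295 to 3569 CPM in cKO and 3640 to 4174 CPM in control libraries, and that of radial glia was 2220 to 2385 CPM in cKO and 2100 to 2151 CPM in control libraries. A sum follows the abundant members more than the list. In the first, Sox4 averaged 1664 CPM in cKO and 2045 CPM in control cortex, and Sox11 1151 CPM in cKO and 1325 CPM in control cortex. In the second, Ptprz1 averaged 891 CPM in cKO and 758 CPM in control cortex.

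Glial markers had mostly positive values. Of 13 tested astrocyte genes 1 rose and 0 fell, with a median of 0.19. Positive values were found in 11, against 6583 of all 12580 genes. In 5 all cKO libraries lay above all controls (5.37% over all genes). Sparcl1 (chromosome 5, 104079111 to 104113733, minus strand), a secreted matricellular protein that promotes synapse formation, had 641, 605, 571 and 684 CPM in cKO libraries, against 394, 431, 447 and 501 CPM in control libraries. It rose by 0.50 (SE 0.09, adjusted p = 0.0343). Gfap, the intermediate filament of astrocytes, had 28.0, 21.2, 23.8 and 24.1 CPM in cKO libraries, against 11.8, 17.4, 15.5 and 13.5 CPM in control libraries, and missed the threshold (log2 fold change 0.71, adjusted p = 0.0612), but was called without control replicates 2 and 6 (adjusted p = 0.0157). The water channel gene Aqp4 was at 0.85 (adjusted p = 0.105). The list summed to 1355 to 1520 CPM in cKO and 1020 to 1286 CPM in control libraries, without overlap. Within these sums Sparcl1 averaged 625 CPM in cKO and 443 CPM in control libraries. All 10 tested genes of the oligodendrocyte lineage had positive values, against 6583 of all 12580 genes. At an unadjusted p under 0.05, 5 of them were higher (9.59% over all genes), and 0 passed. Their median was 0.33, and 0.18 with array weights or with no filter, and Olig1, Bcas1, Mog and Nkx2-2 were at 0.59, 0.51, 0.44 and 0.50. Bcas1 and Mog were at 0.29 and 0.26 without control replicates 2 and 6. Mog, a myelin gene, had 33.4 to 40.0 CPM in P0 cKO and 19.5 to 32.9 CPM in P0 control libraries, but 0.0652 to 0.336 CPM in P7 cKO and 0.167 to 0.547 CPM in P7 control libraries. Myelin genes are known to rise after birth, and what the P0 count of Mog reflects was not tested.

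Striatal markers differed in level between the libraries. All 16 tested had negative values, against 5997 of all 12580 genes, with a median of -0.46 and 0 called. Without control replicates 2 and 6 the median was -0.69 and 3 were called lower. At an unadjusted p under 0.05, 3 were lower (8.50% over all genes). The list summed to 718, 806, 839 and 778 CPM in cKO replicates 3, 4, 7 and 8, against 972, 824, 1049 and 1119 CPM in control replicates 1, 2, 5 and 6, so control replicate 2 lay among the cKO libraries. Meis2 and Ppp1r1b were at -0.33 and -0.68, and Zfp503 and Rarb, with control replicate 2 far below the other controls, at -0.80 and -0.998. Zfp503 and Rarb were at -1.18 and -1.45 without control replicates 2 and 6. The part of striatal RNA in any called gene was not tested.

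Genes of cholesterol synthesis had positive values in all 17 tested members, against 6583 of all 12580, with a median of 0.41. At an unadjusted p under 0.05, 5 of the members were higher (9.59% over all genes). None was called, and in 0 of them did all cKO libraries lie above all controls. Sqle, the epoxidase of the pathway, had 135, 179, 144 and 96.1 CPM in cKO libraries, against 76.4, 64.5, 96.9 and 96.6 CPM in control libraries. Replicate 8 was the lowest cKO library and lay among the controls. Hsd17b7 and Cyp51 were at 0.85 and 0.57, with the same cKO library lowest. The list's median was 0.25 without cKO replicate 4 and 0.59 without cKO replicate 8. Beyond these, 16 further lists held 0 called genes (1, of the hippocampal list, without control replicates 2 and 6), with medians from -0.31 for blood genes to 0.18 for microglia genes. They cover vessels, meninges, choroid plexus, thalamus and hippocampus, Notch and Wnt signalling, stress, respiration and ribosomes. The summed level of the microglia list was 75.0 to 88.8 CPM in cKO and 71.4 to 77.6 CPM in control libraries, and that of the blood list 15.9 to 20.1 CPM in cKO and 20.8 to 29.1 CPM in control libraries.

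**Figure D4:**
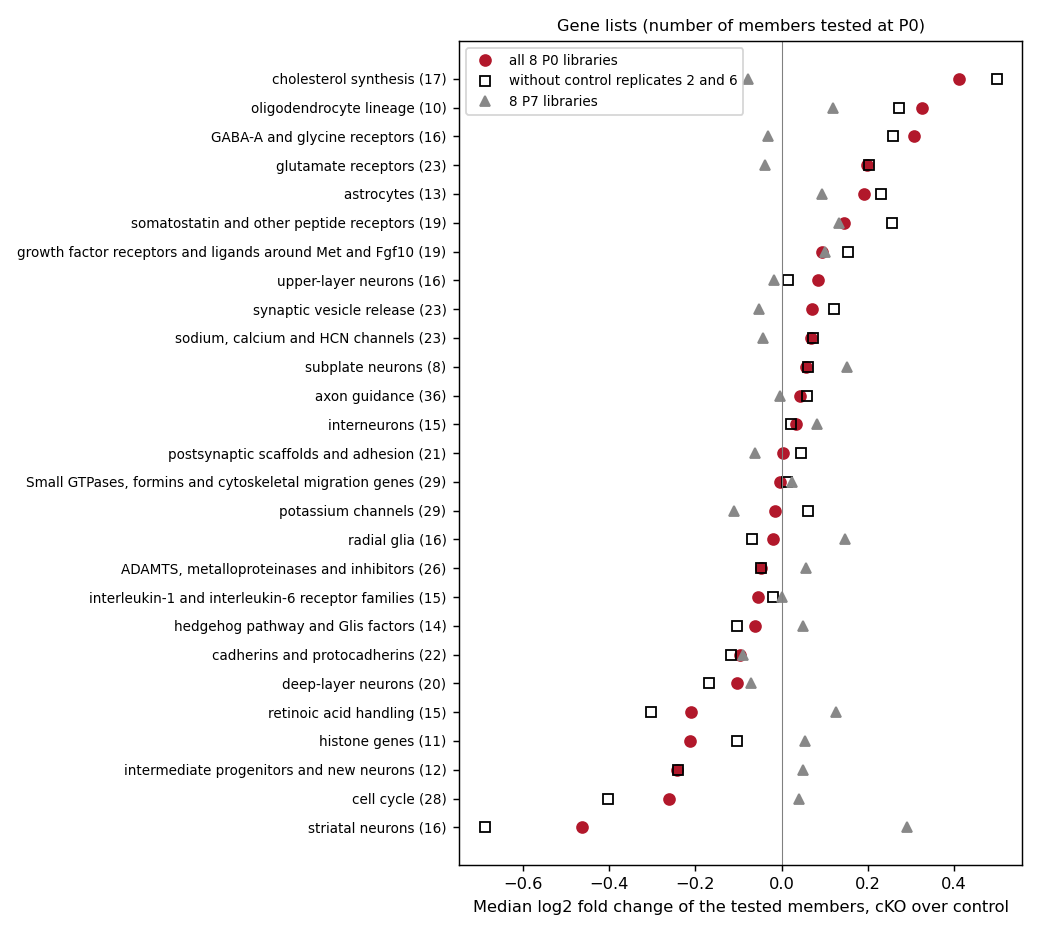
Median log2 fold change of the tested members of each described gene list, cKO over control. Circles are all 8 P0 libraries, squares leave out control replicates 2 and 6, and triangles are the 8 P7 libraries; P0 medians run from -0.46 for striatal genes to 0.41 for cholesterol synthesis.

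Without control replicates 2 and 6, which were picked from these same data, further genes passed. The controls kept were closer to each other than any other control pair, so lower p-values are partly built in. Only genes whose cKO libraries all lay beyond both kept controls were eligible, so that gap was part of the choice. The 6 of these with the largest changes in each direction are given. Those higher in cKO cortex were Nell1, Nov, Nr4a2, Fibcd1, Fst and Cpne4. Fst, follistatin, which binds activin, had 37.5, 32.9, 31.4 and 32.7 CPM in cKO libraries, against 14.7, 27.9, 15.1 and 9.91 CPM in control libraries. Its log2 fold change was 1.04 with all controls (adjusted p = 0.0774) and 1.12 without those 2 (adjusted p = 0.000359). Nell1, a secreted protein, had 13.9, 14.3, 14.9 and 15.1 CPM in cKO libraries, against 3.78, 7.92, 6.58 and 12.1 CPM in control libraries, and Cpne4, a calcium-dependent membrane-binding protein, 58.5, 57.9, 53.6 and 52.7 CPM, against 18.7, 25.9, 39.1 and 45.2 CPM in control libraries. In both, control replicate 6 was the highest control and below all cKO libraries. Nov, a secreted matrix-associated protein, had 12.6 to 21.7 CPM in cKO and 4.72 to 13.1 CPM in control libraries, and Fibcd1, a chitin-binding receptor, 9.30 to 13.0 CPM in cKO and 4.18 to 7.81 CPM in control libraries.

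The genes lower without those 2 controls were Six3, Has2, Zfp503, Myo3b, Xirp2 and Drd2. Six3 had 0.663, 2.60, 2.66 and 1.77 CPM in cKO libraries, against 7.95, 0.166, 4.97 and 6.91 CPM in control libraries (log2 fold change -0.76, and -1.39 without the 2). Drd2, a dopamine receptor, had 0.884, 1.61, 1.66 and 1.99 CPM in cKO libraries, against 3.18, 0.609, 4.2 and 4.90 CPM in control libraries. These genes, with Zfp503, mark striatal neurons, and control replicate 2 was below all cKO libraries in each of the 3. Myo3b followed the same order, at 0.663 to 1.61 CPM in cKO libraries and 3.02, 0.554, 3.04 and 3.51 CPM in control libraries. Has2, which makes hyaluronan, had 1.11, 0.941, 0.996 and 0.553 CPM in cKO libraries, against 3.46, 2.21, 3.32 and 1.45 CPM in control libraries, and its groups did not overlap with all controls kept. Xirp2, an actin-binding protein known from muscle, was at 0.608 to 1.77 CPM in cKO and 1.66 to 3.79 CPM in control libraries.

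The called genes were then followed to P7, in libraries that chose none of them. Of the 31 called genes other than Foxp1, all tested at P7, 26 (83.9%) had the same sign there, against 52.8% of the 12001 genes tested at both ages. Of the higher genes 20 of 23 and of the lower genes 6 of 8 kept their sign. At P7 limma called 477 of 12828 genes (3.72%), and 13 of the 31 P0 genes were among them, all in the same direction. These 13 were 41.9% of the P0 genes and 2.95% of the 440 P7 genes that were tested at P0. Across all 12001 genes the log2 fold changes of the ages had a Pearson r of 0.11, with genes that are not independent replicates and with age and platform split alike. The share with the same sign was 61.5% among the genes called without control replicate 5.

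Higher at both ages were, among others, Aldh1a3, Lacc1, Met, Glis3, Fgf10, Doc2b, Ntsr1 and Hdac9, and lower at both were Lifr, Diaph3, Adamts20 and Il1rap. Fgf10 had 29.4, 29.9, 32.6 and 26.6 CPM in P7 cKO libraries, against 15.2, 17.7, 17.3 and 18.7 CPM in P7 control libraries, a log2 fold change of 0.75 (adjusted p = 0.000188) beside 1.0 at P0. Glis3 had 61.6, 72.1, 66.6 and 64.2 CPM in P7 cKO libraries, against 39.1, 35.1, 40.5 and 35.7 CPM in P7 control libraries, and a log2 fold change of 0.80 (adjusted p = 1.18e-05). The groups of both genes did not overlap, and the difference of their effects between the ages was 0.25 for Fgf10 (adjusted p = 0.462) and 0.24 for Glis3 (adjusted p = 0.562). Il1rap had 31.9, 37.5, 43.03 and 43.9 CPM in P7 cKO libraries, against 59.0, 58.5, 65.9 and 71.3 CPM in P7 control libraries, at -0.70 (adjusted p = 0.000581). Diaph3 had 8.67, 9.83, 8.22 and 7.91 CPM in P7 cKO libraries, against 15.8, 13.0, 17.3 and 17.9 CPM in P7 control libraries, at -0.81 (adjusted p = 0.000743). Foxp1 itself was at -1.03 at P7 and its effects at both ages differed by 0.02 (adjusted p = 0.979).

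The difference between the effects at both ages was tested in 1 fit over all 16 libraries. It was called for 101 of 13407 genes (0.753%), 60 with the effect higher at P0 and 41 with it lower, and for 11 of the P0 genes. Aldh1a3 was among them. It had 13.4, 12.01, 10.01 and 15.2 CPM in P7 cKO libraries, against 7.16, 6.35, 8.02 and 6.78 CPM in P7 control libraries. Its change at P0 exceeded that at P7 by 1.14 (adjusted p = 0.00767). Gm19410 had 101 ± 12.5 CPM in P7 cKO and 118 ± 10.7 CPM in P7 control cortex (SD, n = 4 each), with a difference of 1.48 (adjusted p = 0.00725). Rnd3 had 49.9, 53.9, 43.5 and 51.7 CPM in P7 cKO libraries, against 50.1, 45.3, 42.6 and 50.7 CPM in P7 control libraries, which overlapped, and a difference of -0.76 (adjusted p = 0.0152). Thsd4 was at 21.1 to 32.02 CPM in P7 cKO and 19.7 to 25.2 CPM in P7 control libraries, with a difference of -1.06 (adjusted p = 0.00972). The other genes with a called difference were Tshz2, Ccdc85a, Synpo2, Tmtc4, Asic2, Sphkap and Grik1, all with a larger rise at P0. P0 and P7 libraries came from different instruments and centres, so that age and platform cannot be told apart in these differences.

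**Figure D5:**
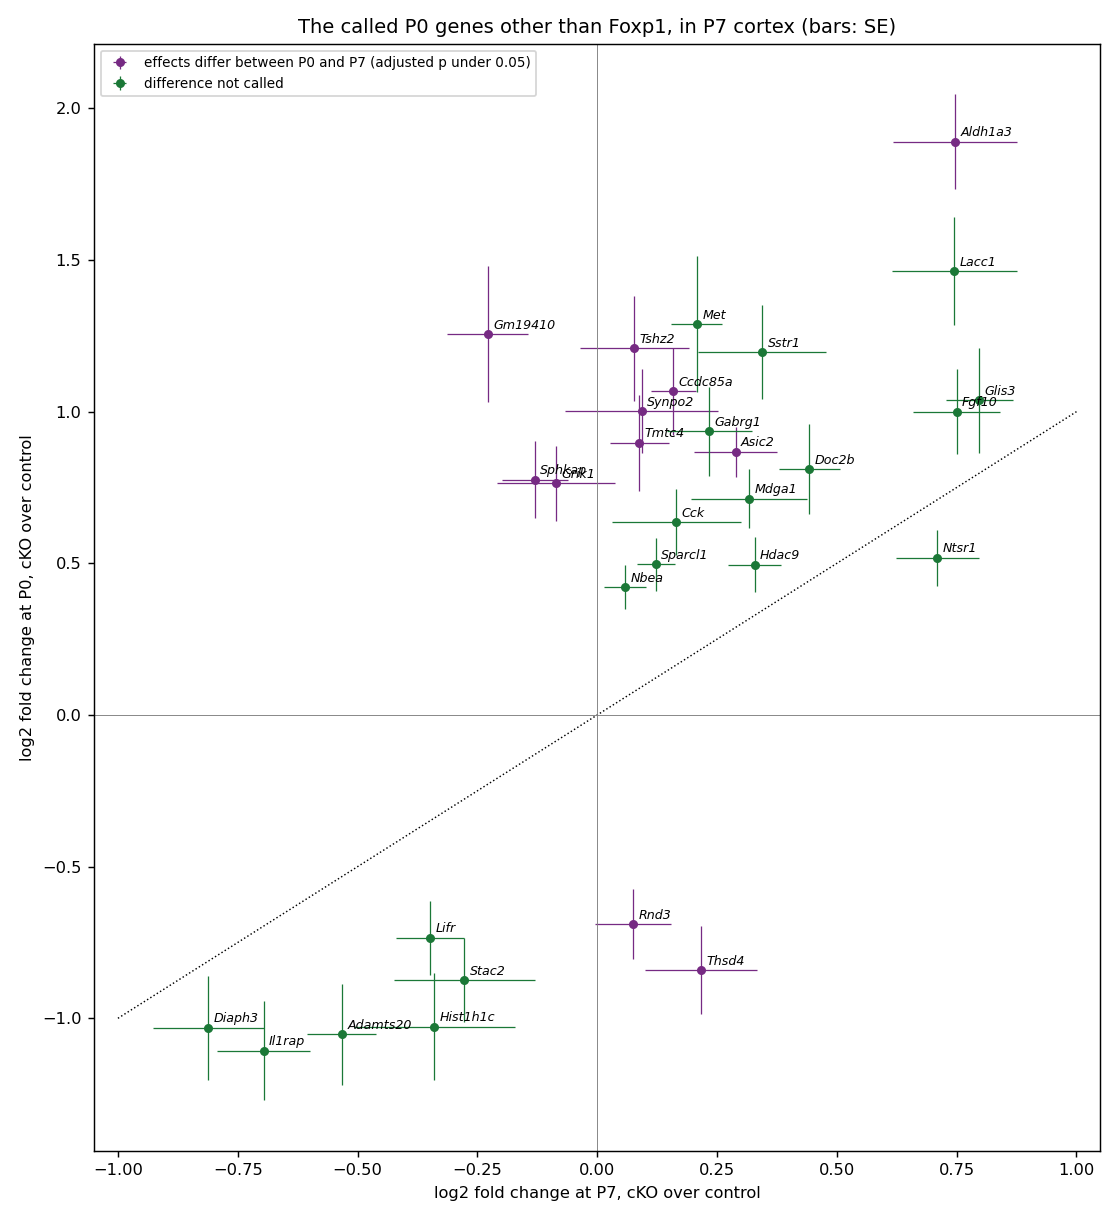
Log2 fold change of 30 of the called P0 genes other than Foxp1 at P0 (vertical axis) against P7 (horizontal axis), cKO over control, with SE bars. Purple points are the 11 genes whose effects differed between the ages, green points the others, and the dotted line marks equal effects; 25 genes drawn lie on the same side of 0 at both ages.

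The largest called differences belonged to genes that mostly did not pass at P0. Rxfp2, a receptor of insulin-like peptides, had 0.443 to 0.830 CPM in P0 cKO and 0.166 to 0.498 CPM in P0 control libraries and was too low to be tested at P0. At P7 it was lower in cKO cortex (log2 fold change -1.80, adjusted p = 3.97e-06). Rxfp2 entered the test of the difference through P7 alone, and the added 1 CPM understates its effect at P0. Hs6st3, a heparan sulfate sulfotransferase, had 29.9, 18.2, 18.1 and 23.7 CPM in P0 cKO libraries, against 14.2, 12.7, 13.9 and 12.9 CPM in P0 control libraries (log2 fold change 0.68, adjusted p = 0.101), and was lower in cKO cortex at P7 (-0.64). Nefm, a neurofilament subunit with 18.6% of its stretches shared, had 146, 88.2, 70.3 and 144 CPM in P0 cKO libraries, against 87.3, 71.3, 76.5 and 76.5 CPM in P0 control libraries, with cKO replicates 3 and 8 high. Its log2 fold change was 0.46 at P0 and -0.87 at P7. Plb1, a phospholipase, had 0.553 to 1.27 CPM in P0 cKO and 0.668 to 1.11 CPM in P0 control libraries. The log2 fold change of Plb1 was 0.07 at P0 and -1.39 at P7. On the other side, Slc18a1, a vesicular monoamine transporter, had 0.387, 0.664, 0.443 and 1.71 CPM in P0 cKO libraries, against 2.63, 6.201, 2.10 and 3.62 CPM in P0 control libraries, and Ifi30, a lysosomal thiol reductase, 11.1, 11.1, 13.6 and 13.7 CPM, against 17.0, 29.7, 20.8 and 28.7 CPM in P0 control libraries. Both had groups that did not overlap and adjusted p of 0.0585 and 0.0585 at P0. Peg10, Ikbke and Pmaip1 had P0 log2 fold changes of -0.54, -0.70 and -0.45, and none of the 3 was called. At P0, Ifi30, Peg10, Ikbke and Pmaip1 were at -0.58, -0.36, -0.35 and -0.28 without control replicates 2 and 6. At P7 these genes were at 0.50, 0.63, 0.47 and 0.72. Slc18a1 was too low to be tested at P7 and entered the test of the difference through P0 alone.

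Many, but not all, of the called genes had a long gene body, a property that did not enter their choice. By GENCODE M21 their median span was 132 kb, against 27.6 kb over the tested genes, and 59.4% of them (19 genes) were longer than 100 kb, against 16.7% of the tested genes. The median was 122 kb for the higher and 148 kb for the lower genes. Length also went with differences between libraries. Control replicate 2 stood below control replicates 1 and 5 by a median log2 difference of -0.127 in genes up to 10 kb, and above them by 0.031 in genes over 300 kb. The median log2 fold change between cKO and control cortex ran from 0.04 in genes up to 10 kb to 0.06 in genes over 300 kb, with values near 0 between them, and 10 of the 508 tested genes over 300 kb were called. The part of that library difference in the calls was not tested. Chromosome 6 holds 2 of the called genes (6.25%), Foxp1 itself and Met, and 5.09% of the tested genes. Of 209 tested genes that start within 20 Mb of Foxp1 0 were called and 16.7% had an unadjusted p under 0.05, against 18.1% of all tested genes. Met lies 81.5 Mb away. With 0.254% of all tested genes called, few or none would be called among 209, and the part of position in the calls was not tested.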

How the data were processed

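Cortical polyA RNA was measured by RNA sequencing in 16 libraries. The deposited table holds CPM, which are reads per gene that the authors scaled to each library's total. Per the submitters' processing notes the tools included HTSeq, STAR and edgeR, and the builds given are mm10 and GRCm38. Their versions and settings were not given in the sources at hand. Every value was a whole multiple of 1 read within 0.01 read (100% of values), so library totals and reads were recovered, and the listed genes held 96.2% to 96.6% of each P0 total. Reads were 50 bases, single-end, at P0. All columns of the table were used.

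Each age was fitted with limma 3.58.1 (R 4.3.3) on log2(CPM + 1), with eBayes, a trend and Benjamini-Hochberg adjustment over all tested genes, and called at an adjusted p under 0.05; every adjusted p printed is from limma unless another tool is named. The added 1 CPM understates fold changes of low genes. The difference between ages came from 1 limma fit over 16 libraries, on 13407 genes. Positions and spans are GENCODE M21 (GRCm38), where 20374 genes matched by symbol, 359 by an older symbol and 108 not at all. The scripts were tested on simulated data. The simulation gave both groups the same spread, unlike these libraries, so it checks the scripts and not the calls made here.

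Named were Foxp1, all genes called at P0, and the 6 largest per direction called only without control replicates 2 and 6. Those 6 were taken from genes whose cKO libraries all lay beyond both kept controls. Also named were the 5 largest differences between ages per direction, and up to 4 members of each described list with the smallest p. Foxp2 and Foxp4 are the paralogs. A few genes under this rule, 1 of them called at P0, are counted but not reported here. Genes and lists were chosen with earlier results of these data known, so lists have counts and medians and no set test.

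Alternatives were 2 other pseudocounts (0.1 and 0.5 CPM), fitting all genes unfiltered, a filter at a mean of 5 CPM, 2 other scalings, a robust spread, array weights, edgeR 4.0.16 and DESeq2 1.42.0 on the recovered reads, 1 fit over all 16 libraries, an adjusted p under 0.1, and libraries left out.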

Additional observations from a re-analysis of the deposited data

Results flagged for a closer look

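The genotype effect at P0 minus that at P7, on the log2 scale and tested as a difference in 1 limma fit, was called for each gene that follows. Among the genes called at P0 it was 1.14 for Aldh1a3, 1.48 for Gm19410, 1.13 for Tshz2, 0.91 for Ccdc85a, 0.91 for Synpo2, 0.91 for Sphkap, 0.85 for Grik1, 0.81 for Tmtc4 and 0.58 for Asic2. It was -0.76 for Rnd3 and -1.06 for Thsd4. Among genes not called at P0 it was 2.08 for Rxfp2, 1.46 for Plb1, 1.32 for Nefm and 1.32 for Hs6st3. It was -1.51 for Slc18a1, -1.38 for Ifi30, -1.17 for Peg10, -1.17 for Ikbke and -1.17 for Pmaip1. The P7 log2 fold changes of Rxfp2, Plb1, Nefm and Hs6st3 were -1.80, -1.39, -0.87 and -0.64. Those of Ifi30, Peg10, Ikbke and Pmaip1 were 0.50, 0.63, 0.47 and 0.72, and Slc18a1 was too low to be tested at P7. Rxfp2 entered this test through P7 alone and Slc18a1 through P0 alone. The added 1 CPM understates the effect at the age where each is low. Age and sequencing platform cannot be told apart in these values.

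Single libraries stood far from the other 3 of their group in 18 of the 270 groups of 4 that were examined (6.67%), where chance gives about 1 in 20. In cKO replicate 3 these were Aldh1a3 at 12.3 CPM, Doc2b at 58.0 CPM, Lifr at 24.6 CPM, Mdga1 at 280.1 CPM and Pou3f3 at 636 CPM. In cKO replicate 7 it was Cdon at 116 CPM, and in cKO replicate 8 they were Cdk1 at 9.46 CPM and Inpp4b at 5.20 CPM. In control replicate 2 they were Fibcd1 at 7.81 CPM, Mmp24 at 101 CPM, Myo3b at 0.554 CPM, Sox11 at 1469.5 CPM and Zfp503 at 0.941 CPM. In control replicate 5 they were Ccdc85a at 39.3 CPM, Olig1 at 47.1 CPM and Sox6 at 74.8 CPM. In control replicate 6 they were Dlx2 at 67.0 CPM and Gli2 at 9.08 CPM.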

How the results depend on the processing

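Foxp1 was called lower under every alternative run. In place of 32 genes called at P0 (23 higher, 9 lower), there were 7 (6 and 1) with no filter, 124 (65 and 59) with array weights, 429 (182 and 247) with DESeq2, 831 (454 and 377) with 1 fit over 16 libraries, and 111 (57 and 54) at an adjusted p under 0.1. Without control replicates 2 and 6 there were 118 (73 and 45), and 2820 genes without overlap, in place of 1241. With the same libraries out, an alternative chosen after seeing the data, 70.7% of called genes had the same sign at P7. edgeR called 30, and the other pseudocounts, the filter on the mean, the other scalings and the robust spread 33 each. Leaving out 1 library gave 4 to 135 called genes (3 to 62 higher, 1 to 73 lower) and 1381 to 2283 genes without overlap. It gave 61.5% to 100% of called genes with the same sign at P7, and 45 to 361 genes whose effect differed between ages. With fewer libraries the groups overlap less often by construction, and otherwise the cause was not tested. The direction of Plb1, not called, turned to -0.016 with quantile normalization. Of the 32 genes, 4 were called without cKO replicate 3 and 4 without replicate 8, 18 without control replicate 6 and 7 with no filter. List medians moved by at least 0.137, the median SE of a gene's log2 fold change over all tested genes, in 28 cases. The striatal list did so most often. A count of 0 allows up to 0.165 to 0.167 CPM in the P0 libraries, and whether depth limited the calls was not tested. No paired analysis was possible because the groups share no replicate numbers.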
